A study of Mus musculus with 14 samples.

Results

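The genes of blood coagulation and complement were examined in mouse liver, as 51 genes chosen by name, 27 of coagulation and 24 of complement. A table of the array platform gave 1 probe set for each of 47 of them, 25 of coagulation and 22 of complement, out of 22206 probe sets tested. Cpb2, Klkb1, C3 and Cfd were not matched and are not analysed here. Livers came from 14 male C57BL/6N mice given as 10 weeks old, the age at purchase, before the days of acclimation. Of these, 7 were of a compression group, whose adjustable clothes were tightened around the trunk. The other 7 were of a no-compression group, which wore the same clothes without added compression. All mice wore the clothes from the acclimation period on and were put briefly under isoflurane to dress them. Isoflurane was also given when the compression was changed and before the mice were killed for liver. Liver was taken 8 hours after the load began, in the light period in which mice rest. The comparison asks whether expression in the liver differed between the groups, and each mouse was measured once, on 1 Clariom S array. The paper reports that mice under compression ate less and lost more body weight in this short-term experiment. Load and lower food intake go together in these groups, so a group difference cannot be assigned to the load alone. The part of food intake was not tested. A value is the log2 expression value that the authors computed for a probe set.

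Most clotting factors and complement proteins of plasma are made by hepatocytes. Coagulation is a cascade of proteases that ends in thrombin, which turns fibrinogen into a fibrin clot, while protein C and protein S restrain it and plasmin dissolves the clot. Complement is a second cascade, started by antibody, by lectins that bind microbial sugars or by C3 itself, and it ends in a membrane pore of late components such as C6, C8 and C9. Some members are made mainly by other cells of the liver, C1q by macrophages and factor VIII by endothelial cells. In a whole liver, fewer cells of a type and less RNA per cell cannot be told apart.

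The authors' summary of probes pulls a probe set to 1 fixed level when no variation is shared by its probes, so most probe sets hardly differ between arrays. Of the 22206 probe sets 1238 (5.58%) had an SD above 0.01 over the 14 arrays and are called probe sets with spread. A probe set without spread gives a signal and says nothing about a change. No-compression replicates 6, 3 and 7 stood apart from the other arrays, at 16.7, 9.57 and 9.45 on the leading principal component (57.1% of the variance of probe sets with spread), against −6.73 to 2.25 in the other 11. The members belong to the probe sets on which this component was computed, so their values in these arrays are given as a description. Group differences are given with and without the 3 arrays, and those without them are no test, since leaving out the highest or lowest values of a gene moves its difference. Hepatocyte markers were high in all arrays, with a mean log2 value of 12.98 to 13.01 over the 5 of 6 listed markers that were measured. Only 1 of the 5 had spread, so this narrow range says nothing about the share of hepatocytes. Neutrophil markers (3 of 4 measured) averaged 5.97 to 6.31 in no-compression replicates 3, 6 and 7 and 5.71 to 5.84 in the other 4 of that group, against 5.74 to 5.91 with compression, all under the 95th percentile of the negative control rows of the array (7.48). Endothelial markers (8 of 8 measured, 1 with spread) averaged 8.70 to 8.73 in the same 3 arrays and 8.64 to 8.67 in the other 4, against 8.63 to 8.74 with compression. Kupffer cell markers, of which 3 of the 7 measured had spread, are given beside C1qb. The 5 stellate cell, 3 cholangiocyte and 4 platelet markers had no spread. Whether other cells had a part in the results was not tested.

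Signal separated members with a clear level in liver from members near the background of the array. Of the 47 members, 10 had a mean under the 95th percentile of the negative control rows. These were 7 of coagulation, tissue factor (F3), von Willebrand factor (Vwf), thrombomodulin (Thbd), tissue factor pathway inhibitor (Tfpi), the plasminogen activators Plat and Plau and the urokinase receptor Plaur, and 3 of complement, the pore protein C7 and the anaphylatoxin receptors C3ar1 and C5ar1. All 10 were without spread. Another 21 members had a clear signal and no spread, 11 of coagulation and 10 of complement. Those of coagulation were prothrombin (F2), the vitamin K dependent factors F7, F10 and Proz, the cofactors F5 and F8, the contact factors F12 and Kng1, the B subunit of the fibrin crosslinking factor (F13b), Plg and Hrg. Those of complement were C1qa, C1qc, C2, Masp1, Masp2, properdin (Cfp), C8a, C8b, Cfi and Vtn. The brightness of a probe set also depends on its probes, so the signals below place a probe set against the negative control rows and give no order of the genes. Among the coagulation probe sets without spread the signal was 12.7 for Hrg, a histidine-rich glycoprotein of plasma, 12.7 for kininogen (Kng1) and 12.6 for Plg, well above the control rows, and 5.71, 5.98 and 6.14 for Plaur, Plau and Plat, under their 95th percentile. Among those of complement it was 13.2 for Vtn, which blocks the pore, 12.6 for Masp2 and 12.1 for Cfi, a protease that inactivates C3b, and 6.43, 6.53 and 6.79 for C7, C5ar1 and C3ar1.

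**Figure D1:**
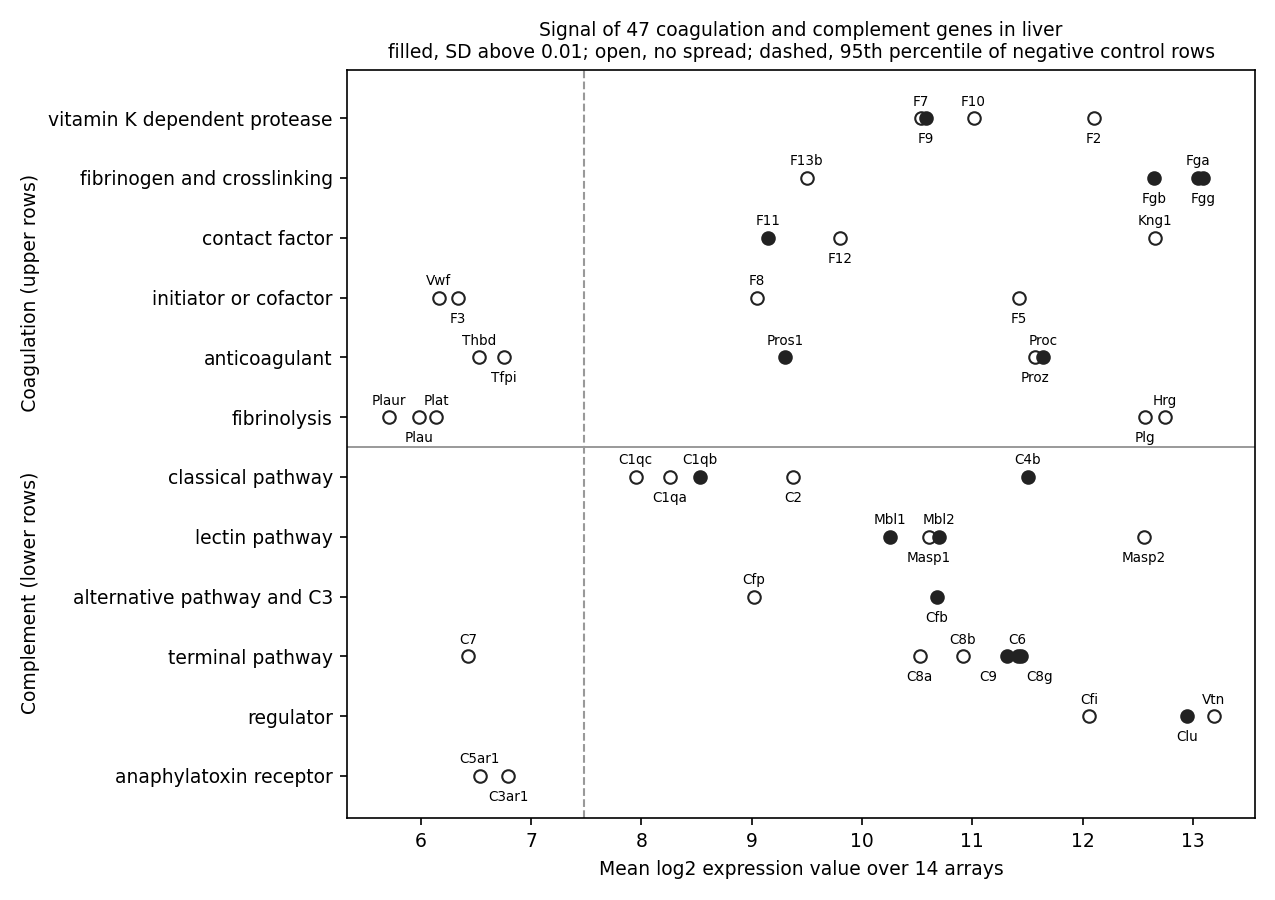
Mean log2 expression value over the 14 arrays (x axis) of each of the 47 measured members, in rows by role. Filled points have an SD above 0.01 between arrays, open points do not, and the dashed line marks the 95th percentile of the negative control rows (7.48), under which 10 members lay.

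Spread between mice was found for 16 members, 7 of 25 of coagulation (28.0%) and 9 of 22 of complement (40.9%), beside 5.58% of all probe sets. These shares are not matched for signal. The median of the mean log2 values was 6.51 over all probe sets and 9.63 over those with spread. The first lies under the 95th percentile of the negative control rows (7.48), as did only 10 of the 47 members. Whether members had spread more often than other probe sets of similar signal was not tested. The SD of the 16 members over the 14 arrays ran from 0.0503 for F9 to 0.222 for the protein S gene Pros1. The limit fell in a wide gap, since the member closest under it was C2, a protease of the classical pathway, with an SD of 0.00197. Of the 31 members without spread, 28 had an SD that rounds to 0.00001, the constant of the summary. The 3 fibrinogen genes, which lie next to each other on chromosome 3, all had spread, while the neighbours F7, F10 and Proz on chromosome 8 had none. On chromosome 4 the 3 neighbouring genes of C1q were divided, C1qb with spread and C1qa and C1qc without. On chromosome 17 Cfb had spread and its neighbour C2 did not. The subunits of C8 were divided too, with spread for C8g and none for C8a and C8b, which lie side by side on chromosome 4.

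The chains of fibrinogen, the precursor of fibrin, differed more among the no-compression mice than between the groups. Fga, the alpha chain, was between 13.01 and 13.08 with compression (median 13.03) and between 12.94 and 13.15 without it (median 13.03). Fgb, the beta chain, was between 12.58 and 12.71 (median 12.63) and between 12.54 and 12.78 (median 12.68). Fgg, the gamma chain, was between 13.05 and 13.12 (median 13.06) and between 12.99 and 13.20 (median 13.09). In all 3 chains every compression value lay inside the range of the no-compression values. No-compression replicates 3, 6 and 7 held the 3 highest of the 14 values of each chain, with 12.78, 12.78 and 12.73 for Fgb, and the lowest value came from no-compression replicate 1 for Fga and Fgg and from replicate 2 for Fgb. Within the compression group replicate 4 was highest in each chain (13.08 for Fga, 12.71 for Fgb and 13.12 for Fgg). The log2 fold change of compression over no-compression was −0.0072 for Fga (standard error 0.0317), −0.02 for Fgb (0.0438) and −0.02 for Fgg (0.0304), with 95% intervals that spanned fold changes of 0.949 to 1.04, 0.921 to 1.05 and 0.941 to 1.03. None passed limma (adjusted p = 0.996, 0.987 and 0.985). Without no-compression replicates 3, 6 and 7 the means of all 3 were higher with compression, by 0.05, 0.05 and 0.03 on the log2 scale.

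Promoters are printed for Fgg, Fga, Fgb, Pros1 and Mbl1 because these genes held their highest values in the same 3 arrays, as did Cfb and Clu, which were not matched to a promoter. They are RefSeq windows of the build GRCm38.p6, from 250 bases before to 50 bases after the start, read 5′ to 3′ on the strand of the gene: Fgg at chr3:83007474-83007773 (plus strand), Fga at chr3:83025903-83026202 (plus), Fgb at chr3:83049814-83050113 (minus), Pros1 at chr16:62854057-62854356 (plus) and Mbl1 at chr14:41151206-41151505 (plus). Capitals mark the letters CTGGGA on either strand, read as TCCCAG on the other one, which in the fibrinogen genes of the rat form the core of a response element to interleukin-6.
Fgg: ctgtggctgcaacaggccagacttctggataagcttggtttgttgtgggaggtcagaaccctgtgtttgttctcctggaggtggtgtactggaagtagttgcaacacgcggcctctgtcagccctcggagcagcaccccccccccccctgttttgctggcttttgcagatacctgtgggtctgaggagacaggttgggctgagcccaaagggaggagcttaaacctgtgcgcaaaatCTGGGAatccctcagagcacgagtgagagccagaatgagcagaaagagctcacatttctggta
Fga: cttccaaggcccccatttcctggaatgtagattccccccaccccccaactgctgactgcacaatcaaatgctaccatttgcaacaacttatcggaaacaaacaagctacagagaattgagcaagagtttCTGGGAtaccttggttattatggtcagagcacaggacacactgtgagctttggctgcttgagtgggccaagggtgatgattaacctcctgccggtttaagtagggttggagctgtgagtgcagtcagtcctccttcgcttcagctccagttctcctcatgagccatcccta
Fgb: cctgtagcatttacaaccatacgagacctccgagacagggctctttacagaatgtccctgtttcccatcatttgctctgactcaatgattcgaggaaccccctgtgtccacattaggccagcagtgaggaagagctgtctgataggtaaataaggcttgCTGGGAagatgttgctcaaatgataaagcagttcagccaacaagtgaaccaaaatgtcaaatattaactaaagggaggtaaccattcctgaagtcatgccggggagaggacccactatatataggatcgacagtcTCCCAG
Pros1: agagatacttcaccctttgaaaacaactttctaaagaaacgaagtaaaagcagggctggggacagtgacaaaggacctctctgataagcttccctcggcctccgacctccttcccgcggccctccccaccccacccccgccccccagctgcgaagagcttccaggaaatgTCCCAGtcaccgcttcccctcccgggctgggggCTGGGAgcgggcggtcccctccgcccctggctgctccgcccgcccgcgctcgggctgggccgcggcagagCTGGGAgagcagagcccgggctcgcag
Mbl1: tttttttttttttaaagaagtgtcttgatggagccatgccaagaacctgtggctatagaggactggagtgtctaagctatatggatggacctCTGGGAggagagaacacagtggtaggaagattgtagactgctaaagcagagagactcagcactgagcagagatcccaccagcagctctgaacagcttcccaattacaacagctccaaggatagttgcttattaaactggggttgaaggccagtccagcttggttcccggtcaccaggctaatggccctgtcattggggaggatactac
Of the 16 members with spread, 12 were matched to a promoter, and 7 of the 12 held CTGGGA (C6, F9, Fga, Fgb, Fgg, Mbl1 and Pros1), beside 31.8% of the 32851 promoters of the table. The letters stood at bases 238 to 243 of the window in Fgg, 130 to 135 in Fga, 160 to 165 and 295 to 300 in Fgb, 171 to 176, 204 to 209 and 274 to 279 in Pros1, and 93 to 98 in Mbl1. The STAT-like letters TTCNNNGAA were found in F9, Fga, Fgb and Pros1 (4 of 12, beside 8.30%), overlapping CTGGGA in F9, where they span bases 169 to 177 and CTGGGA spans 170 to 175. The C/EBP-like letters TTGCNNAA were found in C9, F11, F9, Fga and Fgb (5 of 12, beside 10.8%), and GTTAAT, a part of the HNF1 site, in Fga and Fgb (2 of 12, beside 7.10%). A match of letters is a description and not a site. A member counted if any of its windows held the letters (13 windows for the 12), while the share is per promoter. The motifs were chosen after the values were seen, and whether the members differ from all promoters was not tested. Clu, C4b, Cfb and Proc were not matched.

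Proc and Pros1, the genes of protein C and its cofactor protein S, lay on opposite sides in the 3 arrays that stood apart. Proc, whose product inactivates factors V and VIII, was between 11.65 and 11.74 with compression (median 11.68) and between 11.42 and 11.70 without it (median 11.65). No-compression replicates 6, 3 and 7 were the 3 lowest of the 14 values, at 11.42, 11.49 and 11.53, and the other 4 of that group lay within the range of the compression group. Pros1 was between 9.09 and 9.56 with compression (median 9.23) and between 9.06 and 9.65 without it (median 9.24), with no-compression replicates 3, 6 and 7 on top at 9.63, 9.64 and 9.65. Compression replicate 4, at 9.56, came next to these, and the other 10 arrays did not pass 9.31. The log2 fold change was 0.09 for Proc (standard error 0.0433, 95% interval −0.0003 to 0.187) and −0.09 for Pros1 (standard error 0.118, 95% interval −0.35 to 0.16), and neither passed limma (adjusted p = 0.943 and 0.981). Of the members with spread Proc had the lowest unadjusted p in limma (0.0506) and in the exact two-sided permutation test of the groups (0.0664). Without the 3 arrays the log2 fold change was 0.0087 for Proc and 0.13 for Pros1. The study lists Proc among the genes that it chose on these samples.

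The proteases F9 and F11 completed the coagulation members with spread. F9, the factor that is missing in haemophilia B, was between 10.42 and 10.62 with compression (median 10.60) and between 10.55 and 10.63 without it (median 10.57). The value of 10.42 came from compression replicate 3 alone, and the other 6 arrays of that group lay at or above 10.57. F11, which activates factor IX, was between 8.97 and 9.42 (median 9.16) and between 8.75 and 9.27 (median 9.21), and its lowest value came from no-compression replicate 6. The groups overlapped for both, with log2 fold changes of −0.0028 for F9 (standard error 0.0275) and 0.05 for F11 (standard error 0.0883), with adjusted p = 0.996 and 0.986 from limma. Without no-compression replicates 3, 6 and 7 both turned, to 0.01 for F9 and −0.01 for F11. Of the F9 values the compression group had the larger SD (0.0691 against 0.0267, n = 7 each), unlike the other 6 coagulation members with spread.

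In the lectin pathway both mannose-binding lectins had lower means with compression over all 14 arrays and groups that overlapped, and the direction of Mbl1 turned without no-compression replicates 3, 6 and 7. Mbl1, mannose-binding lectin A, was between 10.06 and 10.35 with compression (median 10.21) and between 9.99 and 10.48 without it (median 10.28). No-compression replicates 6, 3 and 7 were the 3 highest at 10.48, 10.39 and 10.35, the last only just above compression replicate 3, and replicate 1 of the same group was the lowest, so that both ends of the range came from 1 group. Mbl2, mannose-binding lectin C, was between 10.53 and 10.80 (median 10.68) and between 10.64 and 10.89 (median 10.68), with its highest value in no-compression replicate 7. No-compression replicate 6, the highest for Mbl1, was at 10.68 for Mbl2 and thus at the group median. The log2 fold changes were −0.06 (standard error 0.0668) and −0.05 (standard error 0.0464), with adjusted p = 0.979 for each from limma. Without the 3 arrays they were 0.03 for Mbl1 and −0.0048 for Mbl2. The study lists Mbl1 among its chosen genes on these samples. Masp1 and Masp2, the proteases that ride on these lectins, had no spread.

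The classical and alternative pathways were represented by C1qb, C4b and Cfb. C1qb, a chain of the recognition protein C1q, was between 8.42 and 8.66 with compression (median 8.49) and between 8.43 and 8.65 without it (median 8.53). Its 5 values at or above 8.60 came from both groups, from compression replicates 2 and 6 and no-compression replicates 5, 6 and 7. The 7 measured of 8 markers of Kupffer cells, the macrophages of liver, averaged 8.13 to 8.25 with compression, 8.19 to 8.36 in no-compression replicates 3, 6 and 7 and 8.14 to 8.16 in the other 4, and 3 of the 7 had spread. Only 4 of the 7 lay above the 95th percentile of the negative control rows. Of the 3 with spread, Marco lay under it (mean 7.33). The mean of the 3 arrays exceeded that of the other 4 by 0.66 for Marco, 0.19 for Cd5l and 0.027 for Vsig4. The part of Kupffer cells in the values of C1qb was not tested. C4b, the source of the C3 convertase subunit, was between 11.44 and 11.58 (median 11.51) and between 11.41 and 11.60 (median 11.50). C4b has a near copy, C4a, and probes of the array could read both, so its values are uncertain in that respect. Cfb, the protease of the alternative pathway, was between 10.62 and 10.69 (median 10.66) and between 10.62 and 10.84 (median 10.70). The top value of Cfb came from no-compression replicate 6, followed by replicates 3 and 7, and the compression arrays spanned a narrow range by comparison (SD 0.0221 against 0.0758, n = 7 each). The log2 fold changes were −0.03 for C1qb (standard error 0.0453), 0.01 for C4b (0.0289) and −0.04 for Cfb (0.0293), with adjusted p = 0.985, 0.994 and 0.968 from limma. Without no-compression replicates 3, 6 and 7 they were −0.02 for C1qb, 0.05 for C4b and 0.0084 for Cfb, whose direction turned.

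The terminal pathway, whose products build the membrane pore, had spread for C6, C8g and C9, and C6 had the widest range of the complement members. C6 was between 11.20 and 11.64 with compression (median 11.42) and between 11.02 and 11.61 without it (median 11.47). The lowest values came from both groups, from no-compression replicates 6 and 7 at 11.02 and 11.23 and from compression replicates 6, 4 and 7 at 11.20, 11.21 and 11.29. C8g, the gamma chain of C8, was between 11.41 and 11.59 (median 11.48) and between 11.11 and 11.58 (median 11.49), and no-compression replicates 6, 3 and 7 were its 3 lowest at 11.11, 11.25 and 11.30. C9, which polymerizes into the ring of the pore, was between 11.20 and 11.41 (median 11.34) and between 11.26 and 11.46 (median 11.29), with its top in no-compression replicate 3. The groups overlapped in all 3, and the log2 fold changes were 0.0090 for C6 (standard error 0.104), 0.09 for C8g (0.0708) and 0.0040 for C9 (0.039), with adjusted p = 0.996, 0.969 and 0.996 from limma. Without no-compression replicates 3, 6 and 7 the log2 fold change of C6 was −0.13 and that of C8g −0.04, both turned to lower with compression, and that of C9 was 0.04. Clu, clusterin, a plasma chaperone that keeps the pore from inserting, was between 12.82 and 12.99 (median 12.90) and between 12.87 and 13.11 (median 12.92). As for fibrinogen, the highest values of Clu came from no-compression replicates 6, 3 and 7 (13.11, 13.06 and 13.04), and its log2 fold change was −0.04 (standard error 0.0423, adjusted p = 0.979 from limma), or 0.03 without the 3 arrays.

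**Figure D2:**
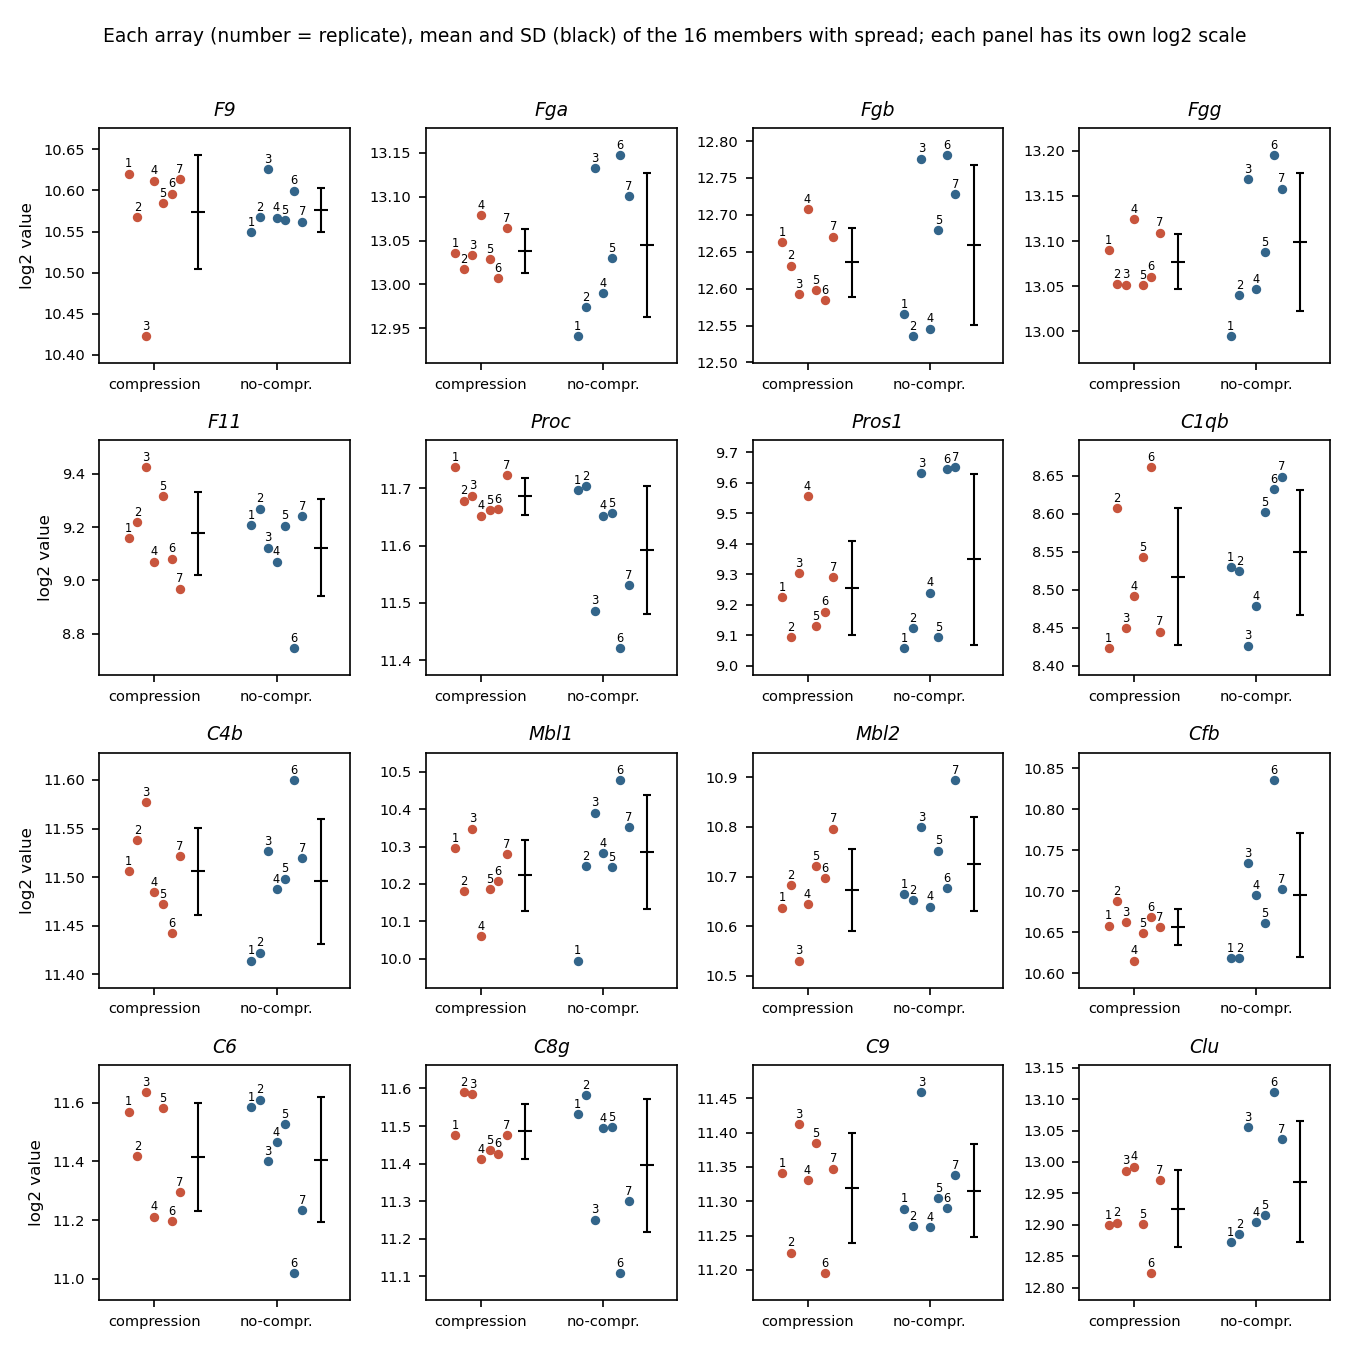
Log2 expression value (y axis, own scale in each panel) of each array in the compression (red) and no-compression (blue) group for the 16 members with spread, with the replicate number above each point. Black bars give mean and SD (n = 7), and no-compression replicates 3, 6 and 7 are the 3 highest of the 14 arrays for Fga, Fgb, Fgg, Pros1, Mbl1, Cfb and Clu and the 3 lowest for Proc and C8g.

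Arrays differed in a shared way across the members. No-compression replicates 3, 6 and 7 were the 3 highest of their group for 8 of the 16 members (Fga, Fgb, Fgg, Pros1, C4b, Mbl1, Cfb and Clu) and the 3 lowest for 3 (Proc, C6 and C8g), which is 68.8% of the members beside 55.9% of all probe sets with spread. For 7 of these 8 they were also above all other 11 arrays, and for Proc and C8g below them, which makes 9 of 16, beside 33.8% of the probe sets with spread. The mean deviation of the 3 fibrinogen chains from their means over the 14 arrays was 0.10, 0.12 and 0.07 in these 3 arrays. It was −0.09, −0.08 and −0.06 in no-compression replicates 1, 2 and 4 and 0.0070 in no-compression replicate 5, with −0.04 to 0.04 in the compression group. The SD was larger in the no-compression group for 13 of 16 members (81.2%), beside 66.4% of the probe sets with spread. Without the 3 arrays it was larger for 5 of 16, beside 26.4%. Whether the shares of the members differ from those of all probe sets with spread was not tested.

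**Figure D3:**
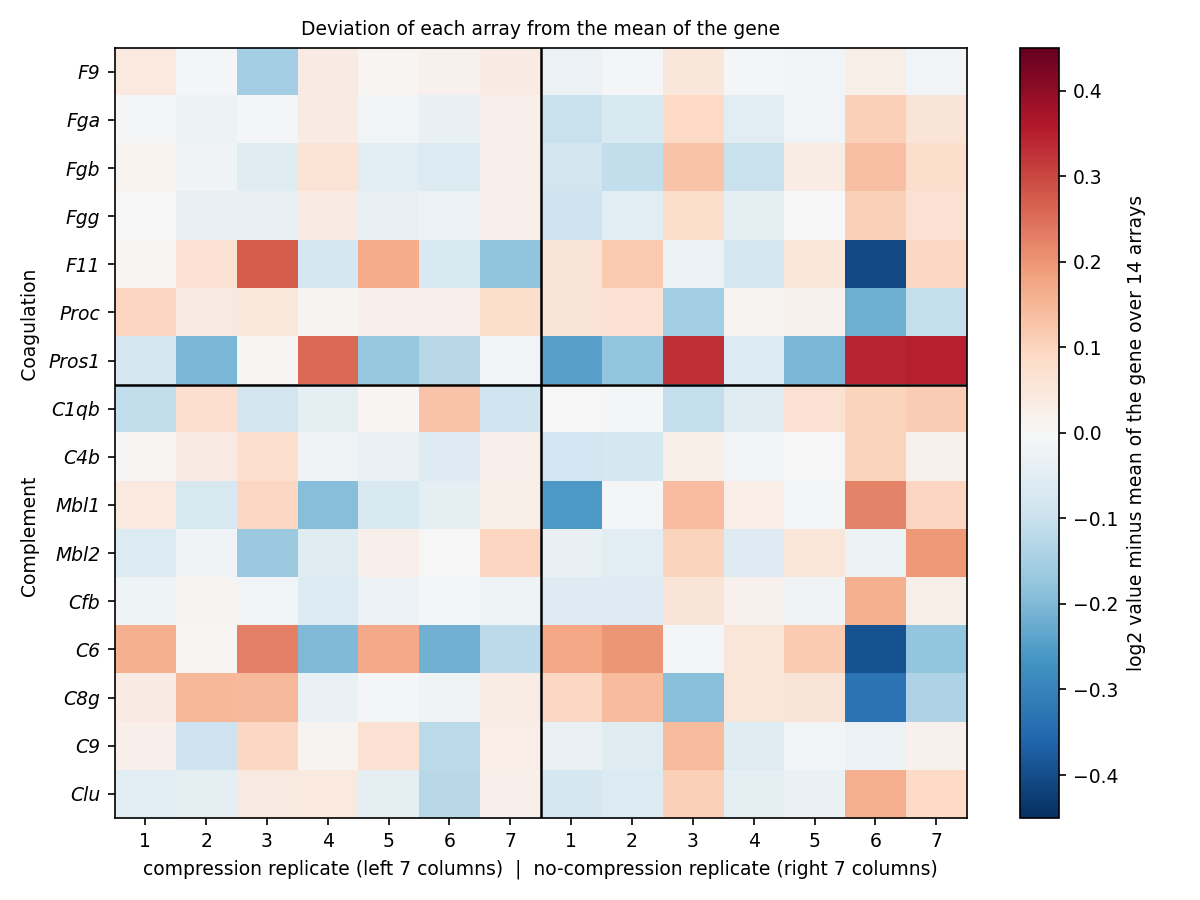
Log2 value of each array minus the mean of the gene over the 14 arrays (colour, red higher and blue lower) for the 16 members with spread, with compression replicates 1 to 7 left and no-compression replicates 1 to 7 right of the line. No-compression replicates 3, 6 and 7 are red for fibrinogen, Pros1, Mbl1, Cfb and Clu and blue for Proc and C8g.

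Between the groups no difference of a coagulation or complement gene passed limma or the exact permutation test after adjustment. Limma passed 0 of the 47 members at an adjusted p under 0.05, as it did 0 of 22206 probe sets (0.0%), and the lowest adjusted p of a member was 0.943. At an unadjusted p under 0.05 limma held 1 of the 47, Plg, which has no spread and differed by 1.4e-05 on the log2 scale, beside 5.19% of all probe sets. The exact permutation test over all 3432 splits of the arrays passed 0 members after adjustment over all probe sets, as it did 0 of 22206 (0.0%). At an unadjusted p under 0.05 it held 1 of the 47, again Plg, at 0.000583, the smallest p the exact test allows, beside 4.78% of all probe sets. Of the 16 with spread it held 0, beside 6.62% of the probe sets with spread. Limma likewise held 0 of the 16 at an unadjusted p under 0.05, beside 7.43% of the probe sets with spread. Rank products, the type of method used by the study, was rewritten here and need not give the study's own calls. It called 0 members higher and 1 lower, Mbl1, at an FDR of 0.0096. Of all probe sets it called 1.31% higher (291), 1.2% lower (266) and 2.47% in either direction (548), so some were called both higher and lower. Proc, which the study lists among its chosen genes, was not called higher here (FDR 0.0125). The rank products calls fall almost wholly on probe sets with spread, of which 43.2% were called, against 6.25% of the 16 members. The FDR of rank products rests on ranks over probe sets and not on the spread between mice.
In coagulation 2 of the 7 members with spread had a higher mean with compression (F11 and Proc) and 5 a lower one, with a median log2 fold change of −0.0072. In complement 4 of 9 were higher (C4b, C6, C8g and C9) and 5 lower, with a median of −0.03. Over the 1238 probe sets with spread 48.3% were higher and the median was −0.0029. The 16 log2 fold changes lay between −0.09 and 0.09, and no 95% interval reached beyond a fold change of 0.784 (Pros1) on the low or 1.19 (F11) on the high side. These intervals are of values that the summary shrinks, with 1 variance for both groups, and set no bound on the change in RNA. The groups overlapped for all 16, as for all 1238 probe sets with spread (0.0% without overlap). Without no-compression replicates 3, 6 and 7 the direction turned in 11 of the 16. How many of all probe sets with spread turned was not counted, so this is not shown to be a trait of the members. Higher were then 6 of 7 in coagulation (median 0.03) and 5 of 9 in complement (median 0.0084), beside 46.0% higher of the probe sets with spread. The log2 fold changes of the 16 without the 3 arrays lay between −0.13 and 0.13.

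**Figure D4:**
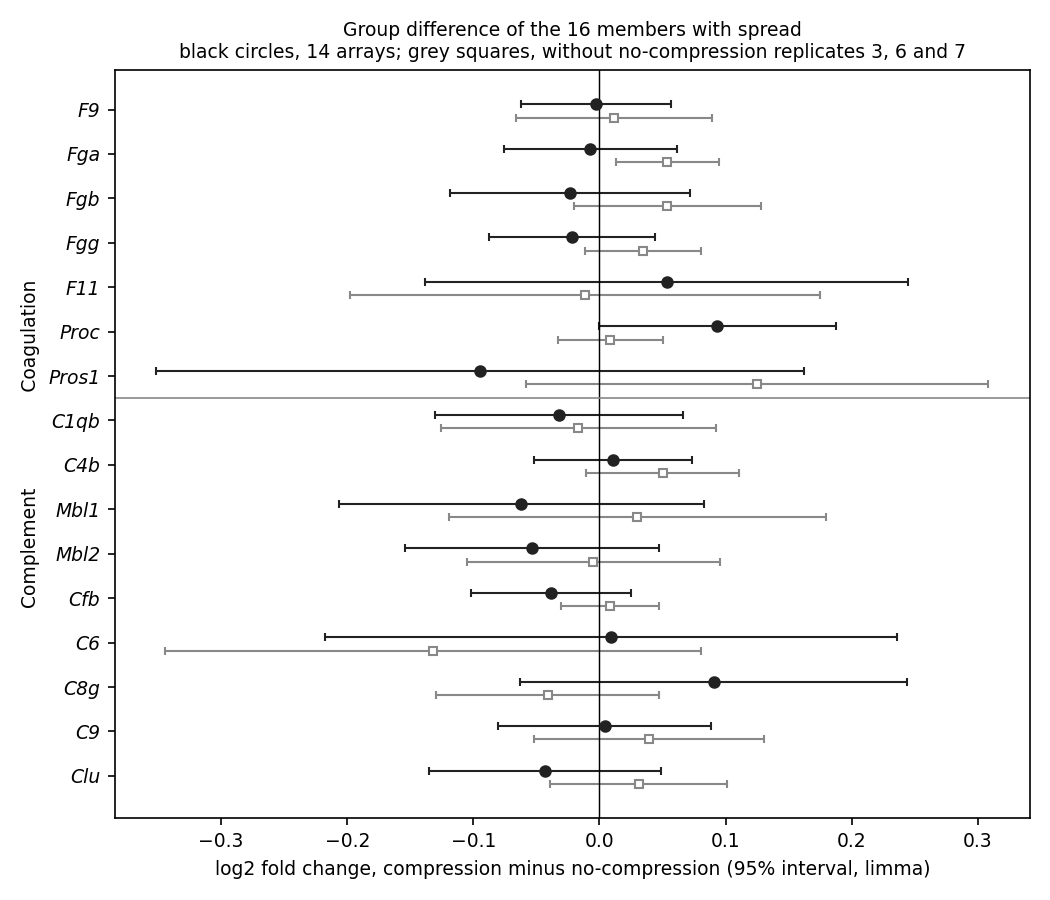
Log2 fold change of compression over no-compression (x axis) with its 95% interval from limma for the 16 members with spread, over all 14 arrays (black circles) and without no-compression replicates 3, 6 and 7 (grey squares). The estimates over 14 arrays lie between −0.09 and 0.09, and 11 of the 16 change sign when the 3 arrays, chosen from these data, are left out, so the grey intervals are no test. The share of all probe sets with spread that change sign was not counted.

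Further genes of the cascades were taken from a list of 22 coagulation and 30 complement genes, of which 20 and 27 were measured and 4 and 7 had spread. In the coagulation list 1 was higher and 3 lower with compression, and in the complement list 4 were higher and 3 lower, and limma passed 0 in each (lowest adjusted p = 0.943). Serpina10, an inhibitor of factor X that acts with protein Z, had a wide range, from 10.24 to 10.62 with compression (median 10.41) and from 10.003 to 11.37 without it (median 10.59). No-compression replicates 6, 3 and 7 held its top values, 11.37, 11.26 and 11.05, and it differed between the groups by −0.28 on the log2 scale (standard error 0.199, adjusted p = 0.960 from limma), or by 0.10 without them. Apcs, serum amyloid P component, an acute phase pentraxin in mice that binds C1q, was between 9.75 and 10.49 with compression (median 10.27) and between 9.43 and 11.96 without it (median 10.20). It was highest in the same 3 arrays, at 11.96, 11.13 and 11.09, and the groups differed by −0.34 on the log2 scale (standard error 0.351, adjusted p = 0.979 from limma), or by 0.32 without them. Cd59a, which blocks the last step of the pore, was between 10.21 and 10.37 (median 10.32) and between 10.12 and 10.29 (median 10.25), so that the groups overlapped at a higher mean with compression (log2 fold change 0.08, standard error 0.03, unadjusted p = 0.02, adjusted p = 0.943 from limma, and 0.04 without the 3 arrays). The study lists Apcs and Cd59a among the genes it chose on these samples. C4bp, an inhibitor of C4b, differed by −0.06 on the log2 scale (standard error 0.0539), and Serping1, the C1 inhibitor, by 0.0032 (0.0328). For Pzp, Serpinf2, Ggcx, Crp and Cd59b the log2 fold changes lay between −0.02 and 0.01.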

How the data were processed

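Gene expression of 14 livers was measured on Clariom S mouse arrays, 1 array per mouse, from 200 ng of total RNA. Per probe set, the authors deposited a log2 value from qFarms (quantile normalization, then a factor analysis of the probes), run in R 3.4.4 per the submitters' processing notes. These values were used unchanged, and the shrinking of probe sets to a constant cannot be undone from them. Of 29129 rows, 6923 control rows were left out, and 22206 probe sets were tested, of which 19572 had 1 gene symbol in the platform table and the others none. Arrays have no read depth, so precision rests on their number, and no genome build was used for the values.
Groups came from the sample titles. The test was lmFit with eBayes of limma 3.58.1 (R 4.3.3), with Benjamini-Hochberg adjustment over 22206 probe sets and a limit of 0.05. Rank products (FDR 0.01, 49 random pairings of the arrays) and the exact two-sided permutation test were written in Python (3.11.15; packages pandas 2.3.3, numpy 2.4.6, scipy 1.17.1), with figures from matplotlib 3.10.9. The programs were tested on simulated data. In limma and the permutation test, a p-value weighs a group difference against how far these 14 mice differ from each other. The members, the lists, the limit of 0.01 for spread and the alternatives were chosen with earlier results of these data known, and the promoter motifs after the values were seen. All members are accounted for, and named with values where they had spread, as are the 3 brightest and 3 dimmest probe sets among members without spread in each system, which gives no order of the genes, and up to 6 further genes of a list with spread and the largest log2 fold changes. Alternatives were quantile normalization, median centring, a filter on low values, a test on the probe sets with spread alone, eBayes with trend and robust, the exact permutation test, rank products, the replicate number as a block, leaving out arrays, other limits for spread and the mean of all probe sets of a gene.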

Additional observations from a re-analysis of the deposited data

Results flagged for a closer look

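Of 52 groups of 7 arrays examined, 2 for each of 26 named genes, 3 held an array that lay far from the rest by Dixon's criterion (gap to the nearest array over the range of the group), where chance gives about 1 in 20. F9 was at 10.42 in compression replicate 3, with the nearest array at 10.57 (gap over range 0.730). F11 was at 8.75 in no-compression replicate 6, with the nearest at 9.07 (0.621). C9 was at 11.46 in no-compression replicate 3, with the nearest at 11.34 (0.614).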

How the results depend on the processing

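Limma called 0 probe sets and 0 members under each limma alternative, each array left out included, and so did the exact permutation test, while rank products called 548 probe sets and 1 member. Of 234 fold changes of the 26 named genes under the alternatives other than leaving out 1 array, 211 kept direction and side, 19 turned, and 4 passed with rank products alone (Mbl1, Serpina10, Apcs and Cd59a). Without no-compression replicates 3, 6 and 7 the log2 fold changes that turned were 0.012 for F9, 0.054 for Fga, 0.054 for Fgb, 0.035 for Fgg, −0.012 for F11, 0.13 for Pros1, 0.030 for Mbl1, 0.0084 for Cfb, −0.13 for C6, −0.041 for C8g, 0.031 for Clu, 0.10 for Serpina10, 0.022 for Pzp, 0.028 for Serpinf2, −0.0097 for Ggcx, 0.32 for Apcs, 0.022 for C4bp and −0.0016 for Cd59b, and the coagulation members with a higher mean were 6 in place of 2. Under quantile normalization C9 was at −0.0035. With the limit for spread at 0.1 only F11 and Pros1 of coagulation and Mbl1, C6 and C8g of complement remained. Of these, the members with a higher mean were 1 in coagulation (F11) and 2 in complement (C6 and C8g). The cause was not tested. With 1 array left out and the limit at 0.01, the members with a higher mean numbered 2 to 4 in coagulation, 4 being without no-compression replicate 3. In complement they numbered 1 to 4, 1 being without compression replicate 3 and 2 without compression replicate 5 or no-compression replicate 1, 2 or 6. The log2 fold changes that turned ranged from −0.011 to 0.022 for F9, −0.024 to 0.0098 for Fga, −0.0096 to 0.088 for F11, −0.0031 to 0.028 for C4b, −0.056 to 0.045 for C6, −0.011 to 0.028 for C9, −0.027 to 0.0070 for Serpinf2, −0.012 to 0.022 for Ggcx and −0.014 to 0.022 for Serping1. Each member has 1 probe set, so the mean of all probe sets of a gene changed nothing. The medians of both systems turned positive without the 3 arrays (0.035 and 0.0084), that of coagulation also without no-compression replicate 3 (0.0055). That of complement also did so with the limit for spread at 0.1 (0.0090, the value of C6). With the replicate number as a block 0 probe sets were called and the medians stayed at −0.0072 and −0.03. The numbers are not stated to pair mice, and same-numbered arrays correlated between −0.488 and 0.336, with 2 of 7 pairs above 0.1. The number of arrays limits what can be seen, and members without spread can show no change.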
